A study of Caenorhabditis elegans with 6 samples.

Results

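The nas genes of *Caenorhabditis elegans* encode astacins, secreted zinc metalloproteases named after a digestive enzyme of crayfish. Astacins cut proteins of extracellular matrices and cuticles as well as food proteins, and most are made as inactive precursors with a propeptide that covers the active site. In this nematode several of them act when the old cuticle is loosened and shed at each molt. The members described here are the rows of the deposited expression table whose gene carries a WormBase symbol made of nas and a number. They are 35 of the 21507 rows, of which 5 are members with a known place in molting or in rebuilding of the pharyngeal cuticle (*nas-6*, *nas-7*, *nas-36*, *nas-37* and *nas-38*) and 30 are the rest. RefSeq holds 37 such symbols, of which *nas-16*, *nas-18* and *nas-40* were not analysed here, while *nas-2* stands for 2 rows at separate places of chromosome V.

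Whole-body RNA was sequenced from untreated hermaphrodites at the last larval stage, L4, in triplicate from the wild-type strain N2 and in triplicate from a glna knockout. Products of the glna genes are glutaminases, which turn glutamine into glutamate. The labels name neither the glna genes removed nor the alleles or strain of the knockout. Nothing in the labels says that replicates were separate cultures, so the replicate spread behind every p-value may be technical.

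Each library held 18443661 to 19861540 reads assigned to genes. *glna-2* fell to 57.6 ± 17.6 normalized counts in the knockout, against 458 ± 56.3 in N2 (SD, n = 3 each, limma adjusted p = 0.0222), and *glna-3* fell to 125 ± 46.6 from 689 ± 64.8 (limma adjusted p = 0.0291). *glna-1* had 156 ± 29.7 and 264 ± 7.88 in the same order (limma adjusted p = 0.0762), so reads remained at all 3 glna genes. Knockout replicate 1 stood apart in composition, with 3.58% of its reads in ribosomal RNA genes, against 0.331% to 0.763% in the other libraries. Markers of hypodermis, pharynx, intestine, oocytes and sperm were detected in every library, apart from *opt-2*, which was not analysed here. In whole-body RNA, fewer cells of a type and less RNA per cell cannot be told apart.

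The nas genes spanned a wide range of levels in wild type. Per kilobase of gene length, *nas-7* was the highest, at 924 ± 44.3 normalized counts (SD, n = 3), followed by *nas-27* at 682 ± 191, *nas-30* at 620 ± 59.8, *nas-36* at 505 ± 81.7 and *nas-20* at 449 ± 104. *nas-11*, *nas-1* and *nas-38* came next, at 433 ± 28.9, 405 ± 52.6 and 402 ± 59.7 per kilobase. From *nas-27* downwards, neighbours in the order of these 8 genes differed by less than the sum of their SDs. The family as a whole took 0.0602% to 0.0680% of the assigned reads in the wild-type libraries and 0.0336% to 0.0495% in the knockout libraries.

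A mean of at least 10 normalized counts over the 6 libraries was reached by 29 of the 35 rows. The other 6 were close to silent. *nas-3* had 37 reads over the 6 libraries, *nas-17* had 13, *nas-10* had 10 and *nas-19* had 6. Each *nas-2* row (F56A4.1, chromosome V, 2466874 to 2468504, and Y19D10A.6, chromosome V, 2358913 to 2360543) had 2 reads, both in knockout replicate 2, and 0 reads in the other libraries, which allows up to 3 reads in each of those. *nas-17* and *nas-19* lie 666 bases apart on chromosome V. No difference between the genotypes was detectable in these 6 rows at this depth.

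**Figure D1:**
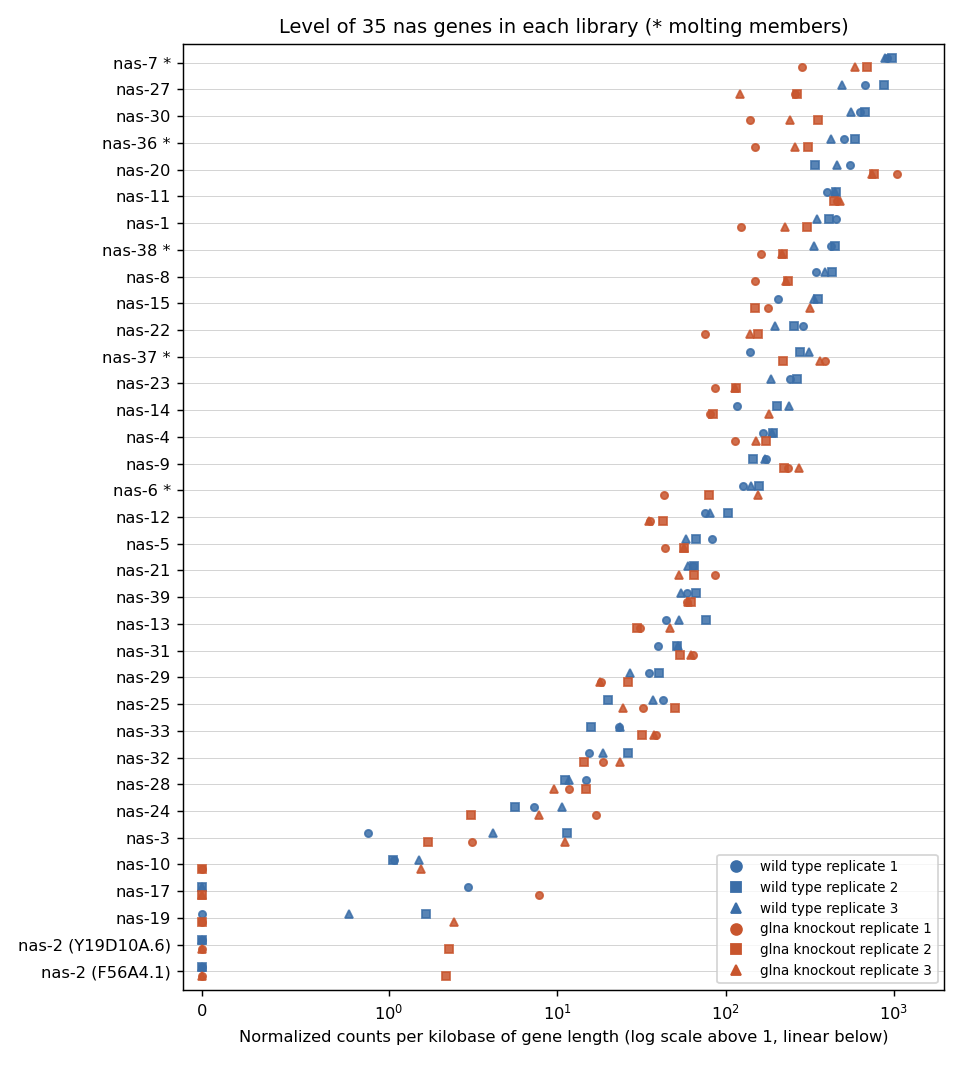
Normalized counts per kilobase of gene length of all 35 nas rows, 1 row per gene and 1 point per library, ordered by the wild-type mean. The scale is logarithmic above 1 and linear below, blue points are wild type, orange points are knockout, and asterisks mark the 5 molting members. *nas-7* stood highest at 924 per kilobase in wild type, and the 6 rows at the bottom did not reach a mean of 10 normalized counts.

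Knockout against wild type is the comparison the design makes. More nas genes had lower than higher values in the knockout, and several of the most abundant members were among them. Of the 29 genes that passed the filter, 19 had negative log2 fold changes, against 48.8% of all 15169 genes tested, and the median was -0.50, against 0.01 over all genes tested. In 12 members every knockout library was below every N2 library, a pattern shown by 15.2% of all genes tested, and in 4 members every knockout library was above, against 15.3%. The remaining 13 had groups that overlapped.

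The call depended on the test. limma on the log2 values called 0 nas genes at an adjusted p under 0.05, where it called 0.356% of all genes tested. The smallest adjusted p in limma was 0.0533, for *nas-23*, and 15 of the 29 had an unadjusted p under 0.05, 12 of them lower and 3 higher. Of all genes 22.6% did, 11.8% lower and 10.9% higher. edgeR on the recovered reads also called 0 members (0.0593% of all genes), with 14 at an unadjusted p under 0.05, against 3496 of all 15169 genes. Calls in the authors' deposited table were 9 members lower and 2 higher, among the 29 for which it lists an adjusted p other than exactly 1. Of all 15240 such genes it called 4.12% lower and 3.99% higher. With DESeq2 the recovered reads gave the 1236 calls of that table, gene for gene. Leaving out 1 library at a time, DESeq2 called between 4 and 11 members lower and between 0 and 2 higher, with the lowest counts, 4 lower and 0 higher, without wild type replicate 2. Over all genes that fit called 293, against 1730 for the fit that left out knockout replicate 2, the most of the 6. Without knockout replicate 1, DESeq2 called 9 members lower and 2 higher, and 733 genes in all. The 11 lower came without knockout replicate 3, where it called 1045 genes in all.

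**Figure D2:**
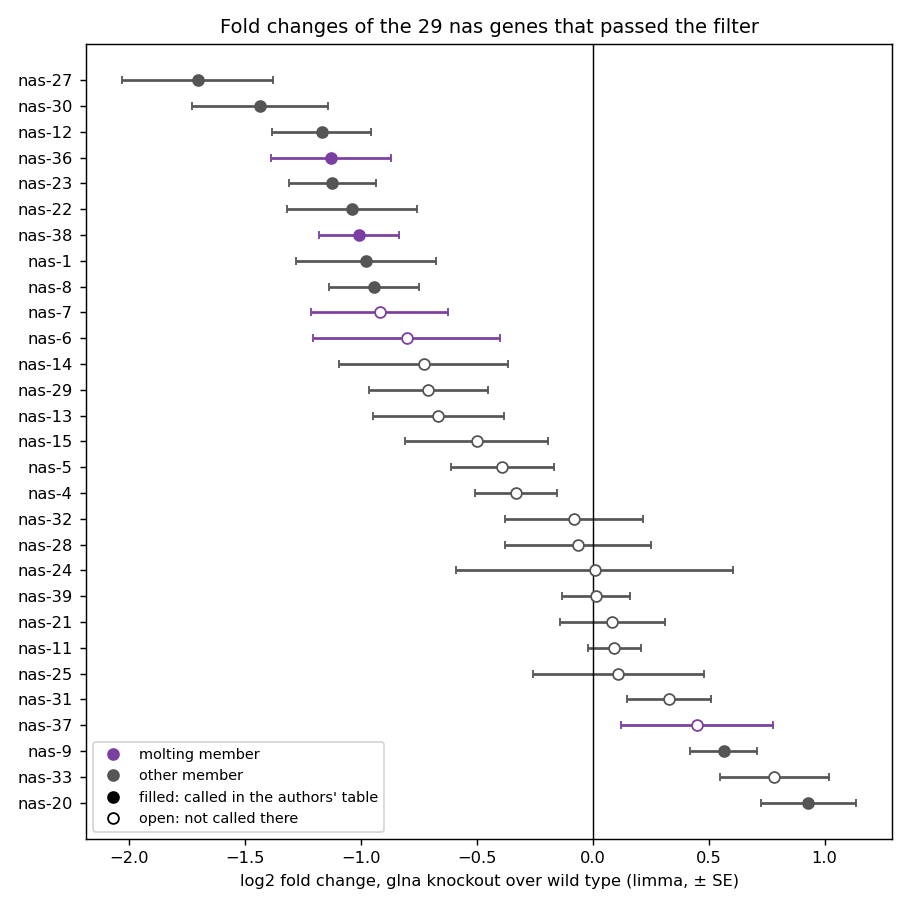
Log2 fold changes of knockout over wild type for the 29 nas genes that passed the filter, from limma with standard errors. Purple marks the 5 molting members, and filled points are the 11 genes called in the authors' deposited table, of which 9 lie to the left of 0 and 2 to the right.

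Of the molting members, *nas-36* and *nas-37* are both needed for ecdysis, the shedding of the old cuticle. *nas-36* (C26C6.3, chromosome I, 7527307 to 7531699, plus strand, WBcel235) had 1093, 1271 and 917 normalized counts across N2 replicates 1, 2 and 3, against 324, 669 and 558 across knockout replicates 1, 2 and 3. Every knockout library was below every wild-type library, with knockout replicate 1 the lowest. The means were 1094 ± 177 and 517 ± 176 (SD, n = 3 each), a 2.12-fold lower level in the knockout. limma gave a log2 fold change of -1.13 (SE 0.26, adjusted p = 0.0787), while -1.08 and an adjusted p of 0.00244 are listed by the authors' deposited table.

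*nas-37* (C17G1.6, chromosome X, 9944848 to 9949060, minus strand) did not share that pattern. It had 355, 701 and 797 normalized counts across N2 replicates 1, 2 and 3, against 986, 555 and 924 in knockout replicates 1, 2 and 3. The groups overlapped, since knockout replicate 2 lay below 2 of the wild-type libraries. The means were 618 ± 233 and 822 ± 233 (log2 fold change 0.45, SE 0.33, limma adjusted p = 0.434). The fold change ranged from 0.09 without wild type replicate 1 to 0.71 without knockout replicate 2. It was the only molting member with a positive log2 fold change. Within wild type its highest library was 2.25 times its lowest, against 1.39 times for *nas-36*. The ratio of *nas-37* to *nas-36* counts within a library, chosen after the values were seen and not tested, was 0.325, 0.552 and 0.869 across the N2 libraries, against 3.04, 0.829 and 1.66 across the knockout libraries, with an overlap of knockout replicate 2 and wild type replicate 3. *nas-37* overlaps C17G1.5 on the opposite strand, and no label says that the library kit marks strand, so reads of overlapping genes may have been mixed.

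*nas-38*, which acts in molting and in the sleep that goes with it, had the smallest adjusted p of the 5 in limma. *nas-38* (F57C12.1, chromosome X, 558141 to 563657, plus strand) had 980, 1036 and 774 normalized counts across the N2 libraries, against 376, 508 and 504 across the knockout libraries (replicates 1, 2 and 3). The groups were well apart, with the lowest wild-type library above the highest knockout library. It was 2.01-fold lower in the knockout, at 930 ± 138 and 462 ± 75.1 (SD, n = 3 each). The log2 fold change in limma was -1.01 (SE 0.17, adjusted p = 0.0547), with an adjusted p of 5.39e-05 by the authors' deposited table. DESeq2 called it in all 6 fits that left out a library, with adjusted p-values of up to 0.00946.

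*nas-6* and *nas-7* act in the pharynx, where the grinder that crushes bacteria is made of cuticle and is rebuilt at each molt. *nas-7* (C07D10.4, chromosome II, 7400544 to 7402707, minus strand), the family's most abundant member per length, had 1209, 1295 and 1183 normalized counts across the N2 libraries, against 378, 926 and 779 across the knockout libraries (replicates 1, 2 and 3). The wild-type libraries were close together and all above the knockout, whose replicate 1 was far below the other two. The means were 1229 ± 58.9 and 694 ± 284 (log2 fold change -0.92, SE 0.29, limma adjusted p = 0.135). The gene just missed the threshold in the authors' deposited table (adjusted p = 0.0519). The fold change was -0.53 in limma without knockout replicate 1. DESeq2 called it lower without knockout replicate 1 or 2. *nas-7* overlaps C07D10.1 on the opposite strand.

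*nas-6* (4R79.1, chromosome IV, 17486982 to 17488295, minus strand) had 132, 165 and 147 normalized counts across the N2 libraries, against 44.5, 82.2 and 161 across the knockout libraries (replicates 1, 2 and 3). Knockout replicate 3 lay within the wild-type range, while the other knockout libraries were below it. The means were 148 ± 16.6 and 95.9 ± 59.5 (log2 fold change -0.80, SE 0.40, limma adjusted p = 0.272). Leaving out knockout replicate 1 gave -0.35, and leaving out knockout replicate 3 gave -1.27. DESeq2 called the gene lower without knockout replicate 3 and in no other fit.

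**Figure D3:**
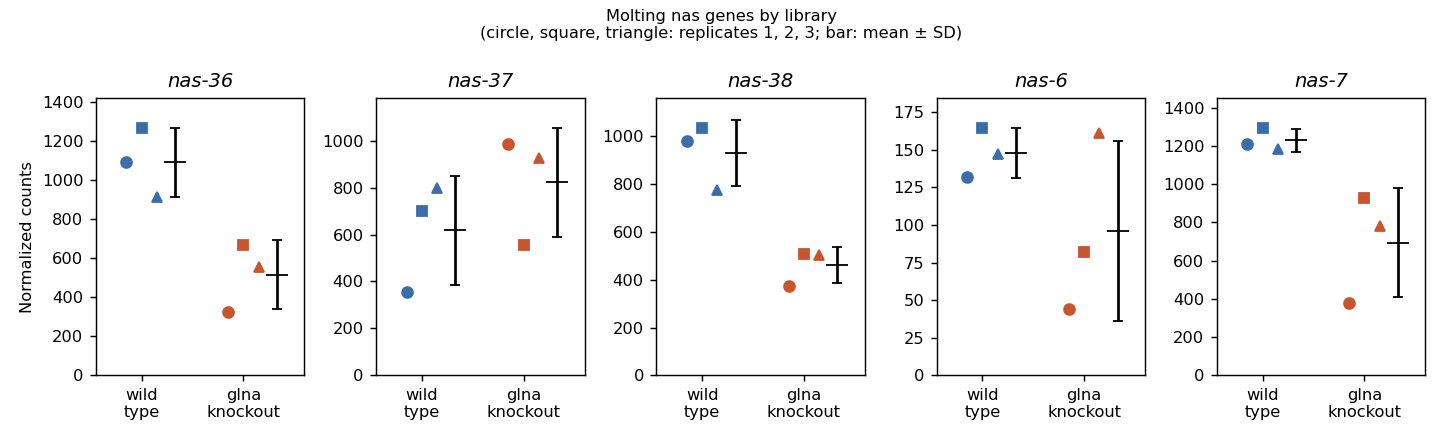
Normalized counts of the 5 molting nas genes, 1 panel per gene with an axis from 0, with circles, squares and triangles for replicates 1, 2 and 3 and bars for the mean and SD. The genotypes did not overlap for *nas-36*, *nas-38* and *nas-7*, while *nas-37* and *nas-6* had knockout values within the wild-type range.

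Set against the rest, the molting members' median log2 fold change was -0.92 (5 genes) and that of the others -0.36 (24 genes). Among genes with a mean of at least 50 normalized counts the medians were -0.92 and -0.58. The molting members' median ranged from -1.08 to -0.53 when 1 library at a time was left out, and that of the others from -0.41 to -0.32. The difference between these groups was not tested, because the members were chosen with earlier results known. Of the 5 molting members 2 were lower and 0 higher by the authors' deposited table, and of the other 24 with an adjusted p other than exactly 1 there, 7 were lower and 2 higher. Relative to the wild-type mean, the molting members' median was -1.70, -0.69 and -0.66 on the log2 scale in knockout replicates 1, 2 and 3. The corresponding medians of the others were -0.65, -0.38 and -0.26. In wild type both medians lay between -0.07 and 0.17.

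Among the 24 others that passed the filter, the members called lower in the authors' deposited table included some of the most abundant ones. *nas-27* (T23F4.4, chromosome II, 1176072 to 1179323, minus strand) had the most negative log2 fold change of the family. Its wild-type libraries held 997, 1288 and 727 normalized counts and its knockout libraries 380, 394 and 178 (replicates 1, 2 and 3). Here knockout replicate 3, not replicate 1, was the lowest. The means of 1004 ± 281 and 318 ± 121 correspond to a 3.16-fold lower level in the knockout (log2 fold change -1.71, SE 0.33, limma adjusted p = 0.0654; adjusted p = 2.55e-05 by the authors' deposited table).

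*nas-30* (Y95B8A.1, chromosome I, 942257 to 947711, plus strand) had 1403, 1500 and 1237 normalized counts across the N2 libraries, against 311, 786 and 537 across the knockout libraries. All knockout libraries were below wild type, and replicate 1 was again the lowest. It was 2.53-fold lower, at 1380 ± 133 and 545 ± 238 (log2 fold change -1.43, SE 0.29, limma adjusted p = 0.0730; adjusted p = 3.7e-04 by the authors' deposited table). Short non-coding RNA genes lie within its span.

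*nas-23* (R10H1.5, chromosome II, 7491471 to 7493643, minus strand), at 388, 430 and 301 normalized counts across the N2 libraries, against 140, 186 and 184 across the knockout libraries, lies 88763 bases from *nas-7*. Its knockout libraries were close together and all below wild type. The gene was 2.19-fold lower (373 ± 65.9 and 170 ± 25.7; log2 fold change -1.12, SE 0.19, limma adjusted p = 0.0533; adjusted p = 5.12e-05 by the authors' deposited table). *nas-27*, *nas-30*, *nas-23* and *nas-38* were called lower by DESeq2 in each of the 6 fits that left out a library.

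*nas-8* (C34D4.9, chromosome IV, 7114948 to 7119914, plus strand) had 525, 649 and 587 normalized counts across the N2 libraries, against 227, 355 and 347 across the knockout libraries, with no overlap. It was 1.90-fold lower (log2 fold change -0.94, SE 0.19, limma adjusted p = 0.0730; adjusted p = 0.00142 by the authors' deposited table). *nas-12* (C24F3.3, chromosome IV, 10224054 to 10226315, plus strand) had 86.7, 119 and 92.7 across the N2 libraries, against 40.95, 48.8 and 40.5 across the knockout libraries. It ranked 18 of the 35 rows in wild-type level per kilobase. Its knockout values were close together and all below every wild-type library. The gene was 2.29-fold lower (log2 fold change -1.17, SE 0.21, limma adjusted p = 0.0582; adjusted p = 0.00193 by the authors' deposited table). DESeq2 called *nas-8*, *nas-12* and *nas-36* in 5 of the 6 fits that left out a library, and lost them without wild type replicate 2 (adjusted p = 0.0552, 0.0809 and 0.0761).

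*nas-1* (F45G2.1, chromosome III, 13406000 to 13409286, plus strand) had 439, 396 and 338 normalized counts across the N2 libraries, against 119, 295 and 217 across the knockout libraries. The groups did not overlap, with the highest knockout library close below the lowest wild-type library. The authors' deposited table puts its adjusted p near the threshold, at 0.0431, and limma at 0.125 (log2 fold change -0.98, SE 0.30, and -0.62 without knockout replicate 1). DESeq2 kept the call in 1 of 6 fits that left out a library, the fit without knockout replicate 2.

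A run of 3 adjacent nas genes on chromosome V showed 3 different patterns. *nas-20* (T11F9.3, 11470800 to 11472311, minus strand), *nas-21* (T11F9.5, 11472561 to 11473899, plus strand) and *nas-22* (T11F9.6, 11474699 to 11477951, plus strand) are separated by 249 and 799 bases. *nas-20* had 658, 408 and 554 normalized counts across the N2 libraries, against 1254, 920 and 893 across the knockout libraries (replicates 1, 2 and 3). Each knockout library exceeded each wild-type library. The level was 1.89-fold higher in the knockout, at 540 ± 125 and 1023 ± 201 (log2 fold change 0.93, SE 0.21, limma adjusted p = 0.0762; adjusted p = 0.00271 by the authors' deposited table). This was the largest positive log2 fold change among the 29 members. The DESeq2 call was lost without wild type replicate 2 (adjusted p = 0.0587).

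*nas-21*, at 73.7, 74.9 and 69.3 normalized counts across the N2 libraries, against 101, 74.6 and 60.8 across the knockout libraries, had overlapping groups (log2 fold change 0.08, SE 0.23, limma adjusted p = 0.849). *nas-22* had 347, 307 and 237 across the N2 libraries, against 91.3, 187 and 168 across the knockout libraries. Its genotypes did not overlap, and it was 1.99-fold lower in the knockout (log2 fold change -1.04, SE 0.28, limma adjusted p = 0.102; adjusted p = 0.0153 by the authors' deposited table). The DESeq2 call of *nas-22* was lost without wild type replicate 1 or 2. The ratio of *nas-20* to *nas-22* counts within a library, which no scaling between libraries affects, was 1.90, 1.33 and 2.34 across the N2 libraries, against 13.7, 4.91 and 5.32 across the knockout libraries. That pair was chosen after the values were seen and the ratio was not tested. *nas-22* overlaps T11F9.7 on the same strand.

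**Figure D4:**
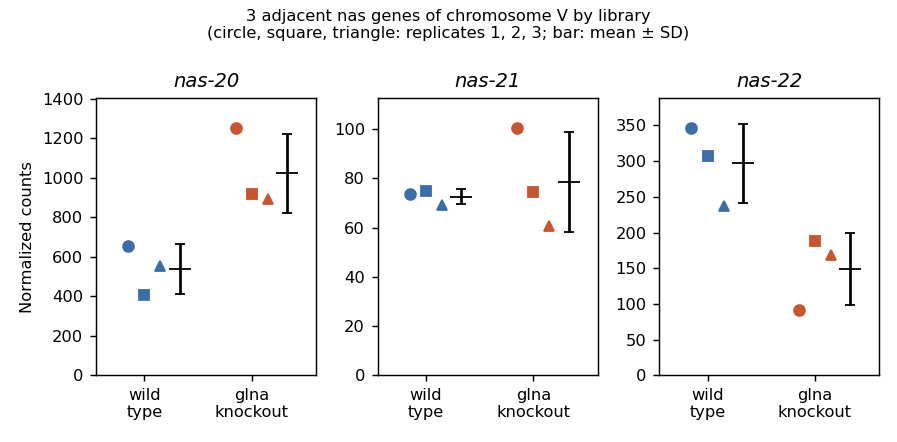
Normalized counts of *nas-20*, *nas-21* and *nas-22*, neighbours on chromosome V, by library, with axes from 0 and bars for the mean and SD. *nas-20* lay higher in every knockout library, *nas-21* overlapped between the genotypes, and *nas-22* lay lower in every knockout library.

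*nas-9* (C37H5.9, chromosome V, 4836028 to 4839983, minus strand) was the other member called higher in the authors' deposited table. It had 315, 260 and 310 normalized counts across the N2 libraries, against 421, 400 and 491 across the knockout libraries, without overlap. The level was 1.48-fold higher, at 295 ± 30.2 and 437 ± 47.7 (log2 fold change 0.57, SE 0.14, limma adjusted p = 0.0898; adjusted p = 0.0278 by the authors' deposited table). DESeq2 kept the call in 2 of the 6 fits that left out a library, those without knockout replicate 1 or 2. The other members with all knockout values above wild type were *nas-33*, at 41.4 ± 8.55 and 71.2 ± 7.01 (authors' deposited adjusted p = 0.102), and *nas-31*, at 103 ± 14.9 and 129 ± 11.5 (0.437).

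*nas-11* and *nas-39* had similar means in both genotypes. *nas-11* (K11G12.1, chromosome X, 6713577 to 6716394, plus strand), among the most abundant members, had 725, 823 and 807 normalized counts across the N2 libraries, against 838, 805 and 868 across the knockout libraries. The groups overlapped and the means of 785 ± 52.5 and 837 ± 31.5 differed by less than the sum of their SDs (log2 fold change 0.09, SE 0.11, limma adjusted p = 0.644). The gene overlaps *smf-2* on the opposite strand. *nas-39*, related to the tolloid and BMP-1 proteases that process procollagen and growth factor inhibitors in other animals, had 189 ± 20.1 normalized counts in N2, against 190 ± 5.83 in the mutant (log2 fold change 0.01, SE 0.15, limma adjusted p = 0.963). *nas-5* (79.4 ± 14.9 and 60.0 ± 8.39) and *nas-29* (68.3 ± 13.3 and 41.5 ± 9.60) had all knockout values below N2 but passed in neither (limma adjusted p = 0.321 and 0.162; adjusted p = 0.439 and 0.177 by the authors' deposited table). The remaining members, *nas-4*, *nas-13*, *nas-24*, *nas-25*, *nas-28* and *nas-32*, had overlapping groups, with log2 fold changes from -0.67 for *nas-13* to 0.11 for *nas-25*. In the genome *nas-39* overlaps F38E9.1 on the same strand, and *nas-29* and *nas-25* overlap F58A6.2 and F46C5.2 on the opposite strand.

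The summed level of the family was lower in the knockout. All 35 rows together held 11297, 12838 and 11124 normalized counts across the N2 libraries, against 7394, 8604 and 8802 across the knockout libraries. The sums of all members did not overlap between genotypes, and the means were 11753 ± 944 and 8267 ± 762. The 9 members lower in the authors' deposited table went from 6155 ± 897 to 2724 ± 709, while the sum of the other 26 was 5598 ± 486 and 5542 ± 467. Because the 9 were chosen by this same comparison, these sums are a description without a test.

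The order of the libraries differed between members. For 9 of the 29, wild type replicate 3 was the lowest wild-type library and knockout replicate 1 the lowest knockout library, against 12.8% of all genes tested. These 9 included *nas-1*, *nas-7*, *nas-22*, *nas-23*, *nas-30*, *nas-36* and *nas-38*. Another 6, with *nas-15* and *nas-37* among them, were lowest in wild type replicate 1 and knockout replicate 2, against 11.6% of all genes. *nas-15* had 412, 709 and 676 normalized counts across the N2 libraries, against 362, 299 and 642 across the knockout libraries, and *nas-14* had 180, 314 and 372 and then 125, 130 and 282. For both genes knockout replicate 3 was within the wild-type range, and DESeq2 called *nas-14* and *nas-15* lower without that library and in no other fit.

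Cuticle and hypodermis markers varied widely within each genotype. Of 11 such genes, 0 were called by limma or in the authors' deposited table, and 0 were at 0 reads in any library. In limma 1 had an unadjusted p under 0.05, against 22.6% of all genes tested. Their summed level ran from 34825 to 46113 normalized counts in N2 and from 31414 to 39746 in the mutant. Most of each sum was *col-19*, at 24227 ± 2572 in N2 and 24369 ± 4778 in the mutant. The median of the 11 markers relative to the wild-type mean was -0.97, 0.39 and 0.61 in wild type replicates 1, 2 and 3. In the knockout it was -0.44, -0.84 and 0.41. All 3 knockout medians lay within the wild-type range. Whether the level of cuticle and hypodermis markers has a part in the lower nas values was not tested. Genes that time the molt had medians of -0.40, 0.33 and 0.12 in the N2 libraries, against -0.20, -0.57 and -0.04 in those of the knockout, and 0 of 6 were called by limma or in the authors' deposited table (1 at an unadjusted p under 0.05). That gene was *lin-42*, a period-related timer of the molts, at 1971 ± 565 and 1174 ± 427 with overlapping groups (log2 fold change -0.76, SE 0.29, limma adjusted p = 0.178; adjusted p = 0.0944 by the authors' deposited table). The nuclear receptor gene *nhr-23* had 1023 ± 36.3 and 980 ± 51.2.

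Summed oocyte, sperm and pharynx markers each did not overlap between the genotypes, though the oocyte marker *oma-1* by itself did. The oocyte sum ran from 6126 to 11119 normalized counts in N2 and from 12771 to 41417 in the mutant, highest in knockout replicate 1. In that library *cbd-1* alone had 19076. All 6 oocyte markers had an unadjusted p under 0.05 in limma, 0 passed adjustment, and 1 was higher in the authors' deposited table. Whether the level of oocyte markers has a part in the lower nas values was not tested. Sperm markers summed to between 11938 and 16712 in N2 and between 8889 and 11276 in the mutant. Of the 6 sperm markers 3 had an unadjusted p under 0.05 in limma, while the authors' deposited table called 2 lower. For the pharynx, where *nas-6* and *nas-7* act, 15 of 16 markers passed the filter, and members went both ways around a median log2 fold change of -0.01. Of these 15, 9 had an unadjusted p under 0.05 in limma. It called 0 lower and 1 higher, against 0.356% of all genes tested in either direction. The authors' deposited table called 1 lower and 3 higher. *marg-1* rose from 333 ± 43.0 to 814 ± 62.7 (log2 fold change 1.29, SE 0.14, limma adjusted p = 0.0291). The pharyngeal myosin genes *myo-1* and *myo-2* had log2 fold changes of 0.72 and 0.65 in limma (adjusted p = 0.125 and 0.146) and were the others called higher in the authors' deposited table. *phat-2*, the marker called lower there, had a log2 fold change of -0.73 in limma (adjusted p = 0.0982). *phat-1*, *abu-7* and *abu-8* also had every knockout library below N2 (log2 fold changes -0.69, -0.43 and -0.38 in limma). *tni-4* and *tnc-2* had every knockout library above N2 (0.30 and 0.19). Summed pharynx markers were 32824 to 33656 in N2 and 36274 to 52243 in the mutant. The largest parts of each sum were *myo-1* (7239 ± 464 in N2 and 12394 ± 4381 in the mutant) and *myo-2* (8931 ± 271 and 14613 ± 5171). The higher sums therefore do not describe the list as a whole. Summed intestine markers were 42997 to 46703 and 38200 to 49219.

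**Figure D5:**
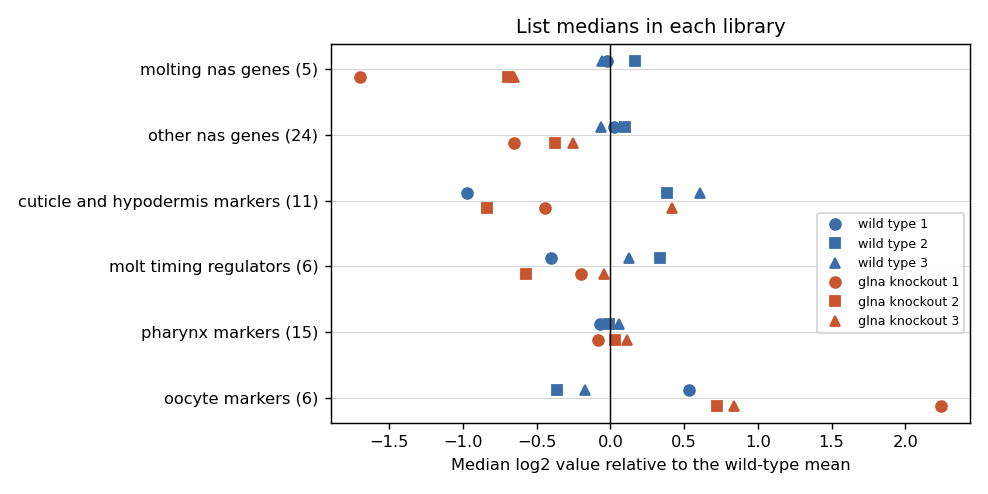
Median log2 value relative to the wild-type mean in each library, for the molting and the other nas genes and for 4 marker lists. The molting nas genes were at -1.70, -0.69 and -0.66 in the knockout libraries, while the cuticle and hypodermis markers ranged from -0.97 to 0.61 in wild type and from -0.84 to 0.41 in the knockout.

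Astacins with other names were compared as well. *dpy-31*, the protease that trims the carboxyl end of the procollagen SQT-3, had 659 ± 65.6 normalized counts in N2, against 676 ± 87.4 in the mutant (log2 fold change 0.04, SE 0.14, limma adjusted p = 0.901). *toh-1*, a tolloid-related astacin, had 2367, 2457 and 1936 across the N2 libraries, against 1065, 1884 and 1541 across the knockout libraries. Its groups did not overlap (log2 fold change -0.62, SE 0.21), but it passed in neither limma (adjusted p = 0.143) nor the authors' deposited table (0.0841). *hch-1*, the hatching astacin, was not analysed here.

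Other extracellular metalloproteases and their inhibitors numbered 15 that passed the filter, with a median log2 fold change of 0.02. limma called 1 lower and 0 higher, against 0.356% of all genes tested in either direction. The authors' deposited table called 1 lower and 2 higher, against 4.12% and 3.99% of the 15240 genes counted there. The gene called by both was *adt-1*, an ADAMTS protease, which fell from 1334 ± 96.0 to 651 ± 121 normalized counts (log2 fold change -1.05, SE 0.16, limma adjusted p = 0.0495). The matrix metalloprotease genes *zmp-3* (224 ± 63.5 and 496 ± 71.4) and *zmp-4* (654 ± 96.4 and 1191 ± 141) were higher in the authors' deposited table (adjusted p = 1.8e-04 for both) and had adjusted p-values of 0.0575 and 0.0547 in limma. *cri-2*, a tissue inhibitor of metalloproteases, had 310 ± 19.2 and 314 ± 13.5.

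Procollagen processing and molting proteolysis formed a list of 18 genes, all of which passed the filter, with a median log2 fold change of -0.27. limma called 0 of them (7 at an unadjusted p under 0.05, against 22.6% of all genes tested). The authors' deposited table called 4 lower and 0 higher, against 4.12% and 3.99% of the 15240 genes counted there. The lower 4 were the prolyl 4-hydroxylase genes *dpy-18* and *phy-2*, the Kunitz-type protease inhibitor gene *bli-5* and the cysteine protease gene *cpz-1*. *dpy-18* had 3479, 6135 and 4378 normalized counts across the N2 libraries, against 1449, 2494 and 2115 across the knockout libraries (limma adjusted p = 0.0737). *bli-5*, with 179, 204 and 187 against 60.8, 109 and 109, likewise had groups that did not overlap (limma adjusted p = 0.0783). *bli-4*, a furin-like protease that cuts procollagens at the amino end, had 7181 ± 471 and 5951 ± 495 (limma adjusted p = 0.216; adjusted p = 0.218 by the authors' deposited table). The substrate gene of *dpy-31*, *sqt-3*, had 7924 ± 2824 and 4815 ± 1741 with overlapping groups (limma adjusted p = 0.241).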

How the data were processed

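Whole-body RNA was extracted with TRIzol and made into NEBNext Ultra libraries, per the labels' protocols. The submitters' processing notes list the build WBcel235 and, with no roles given, DESeq2 1.20.0, featureCounts 1.5.0-p3, StringTie 1.3.3b, HISAT2 2.0.5 and CASAVA 1.8. Per the file headers and values, the deposited signal columns are the authors' normalized counts, that is, reads over a size factor for each library. Both the log2 fold changes and the p-values in the deposited table are those of the authors' comparison of knockout over wild type, with 6267 adjusted values at exactly 1. Each column's values are multiples of a step, and 100% of them came out as whole reads, to within 0.01 read, once divided by it. Coordinates and gene lengths are those of the deposited table. Symbols came from RefSeq for 34 of the 35 nas rows, and the Ensembl 115 annotation gave the same symbol for each of these. Where RefSeq gave no symbol, the one from Ensembl was used.

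In R 4.3.3, limma 3.58.1 (two-sided, empirical Bayes with trend) was fitted to log2(normalized count + 1). It ran on 15169 genes, those whose mean reached at least 10, with Benjamini-Hochberg adjustment over all of them and a threshold of 0.05. Changes given by limma are log2(value + 1) differences, so those of low genes are understated, and plain fold values are ratios of mean normalized counts. As the reads could be recovered, edgeR 4.0.16 (quasi-likelihood) and DESeq2 1.42.0 were run on them as alternatives, and fits were tested on simulated data. A rule for genes given by library took the molting members, those called in any table, the 8 highest per kilobase and the 8 largest changes without overlap between genotypes. *nas-14*, *nas-15*, *nas-21* and all other genes named, the ratios and the library-order patterns were chosen after their values were seen. Members and lists were chosen with earlier results of these data known. Figures were drawn with matplotlib 3.10.9.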

Additional observations from a re-analysis of the deposited data

How the results depend on the processing

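The number of nas genes called lower was 0 in limma and 3 with no filter, 1 with quantile normalization, 6 with sample weights, and 9 in both the authors' deposited table and DESeq2; the number called higher was 0 in limma and 2 in each of these latter tables. Whether the replicate numbers pair the samples cannot be settled with 3 libraries per genotype. Deviations from the group means correlated at 0.197, -0.0246 and 0.288 for equal numbers 1, 2 and 3. For numbers 1 and 3 the equal number was the best match of both libraries, and for number 2 it was not. With the replicate block limma called 7 nas genes lower and 1 higher, and 688 genes in all. Over all genes limma called 54, against 19 with a pseudocount of 0.5, 164 with no filter and 75 with quantile normalization. A mean of at least 50 gave 19 and sample weights gave 320. The authors' deposited table and DESeq2 each called 1236, and edgeR called 9. Leaving out 1 library at a time gave 0 to 3 nas genes lower and 0 higher in limma, 0 to 247 genes in all, and, in DESeq2 fits added after the data were seen, 4 to 11 nas genes lower and 0 to 2 higher, with 293 to 1730 genes in all. The 3 lower in limma, *nas-23*, *nas-38* and *nas-30*, were called without knockout replicate 2. The median log2 fold change of the nas genes outside the molting group was -0.58 among genes with a mean of at least 50. Of 240 log2 fold changes of 15 named genes under 16 other settings, 43 passed the threshold that limma did not reach, and none changed sign. These counts are a description, because the named genes were partly chosen by their calls and changes in these data. Calls shared by the authors' deposited table and DESeq2 are counted under each. Settings that change only the filter or add the block keep the fold change of the main limma fit. The causes of the differences between settings were not tested. Depth limits the 6 members under the filter.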
